A study of Mesocricetus auratus with 24 samples.

Results

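CpG-dense stretches of DNA that were methylated in untreated fetal cells of the Syrian hamster were followed through 6 stages of a cell transformation assay. A window was a 1 kb stretch of a scaffold, and its methylation level in a library was the percent of all cytosine reads in it that were methylated, summed over its CpG positions with the strands counted apart. Windows entered when each of the 24 libraries listed at least 3 positions in them, when at least 30 distinct positions were listed over all libraries, and when the mean level of the 4 vehicle pools was 70% or more. These rules left 1018 windows, which were 7.28% of the 13992 dense windows, 4.46% of the 22842 windows measured in all 24 libraries and 20.1% of the 5055 measured windows at 70% or more in vehicle. The windows were selected on their level in the vehicle pools, so every vehicle value given for them is a description and was not tested.

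DNA methylation in mammals sits mostly on the cytosine of CpG pairs, where maintenance methyltransferases copy it onto the new strand after replication. Methylated CpGs are lost over evolution through deamination, so most of the genome is poor in CpG and highly methylated, while CpG-rich stretches, many of them promoters, are mostly kept free of methylation. CpG-dense DNA that is nonetheless methylated in somatic cells is a minority class, known from germline gene promoters, imprinted regions, gene bodies and young repeats. Which of these the windows belong to was not examined, because a gene annotation of the assembly behind these coordinates was not used here.

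In the assay, fetal cells form colonies, are exposed to a chemical and are scored for colonies of altered morphology. The 24 libraries formed 6 groups of 4 and were made by reduced representation bisulfite sequencing, in which restriction fragments rich in CpG are sequenced after bisulfite has converted unmethylated cytosine. Vehicle pools held about 60 colonies each, collected on day 9 after 0.2% DMSO, and B[a]P pools the same after benzo[a]pyrene at 5 µg/mL, a polycyclic aromatic hydrocarbon that cells turn into DNA-damaging metabolites. Normal and transformed colonies were cultures grown for 19 to 25 days, each begun from a colony that B[a]P had been given to and that looked normal (N) or morphologically transformed (MT). The pools and colonies came from cells of a single male fetus per assay and were described as biological replicates. The senescent (day 48) and bypass (day 94) libraries were technical replicates of 1 male-typed culture that began as a transformed, B[a]P-treated colony in an assay on pooled fetuses of both sexes, called the late culture below. Every group except the vehicle pools had thus been exposed to B[a]P. Fetal source and days in culture differ between the pools, the colonies and the late culture and cannot be told apart from the stage. Within the late culture, time in culture cannot be told apart from escape from senescence, and p-values there cover technical spread only.

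Each library listed 809562 to 1484688 positions at a median coverage of 21 to 38 reads. The 1018 windows held 30 to 176 distinct positions, with a median of 38. A library listed a median of 18 of them per window, 43.8% of the positions known there, backed by a median of 565 reads summed over positions. Only 64 windows had any position listed in all 24 libraries, so the set of positions behind a window's level differed between libraries. Pairs of libraries still had many positions in common. Counted over all listed positions, pairs within a group shared from 360008 (vehicle replicates 2 and 3) to 912792 (transformed replicates 1 and 3). In 2 windows a few positions of extreme coverage, in the top 0.1% of a library, set the level. At KB708326.1:68001-69000 the vehicle mean was 71.4% with those positions and 9.21% without them, and at KB708224.1:6798001-6799000 it was 72.1% and 32.3%. Leaving out both windows changed no group mean of the 1018 by more than the replicate SD.

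The windows stayed highly methylated at every stage, and their levels were highest in the bypass culture. The mean level was 85.6% ± 0.534 in vehicle pools, 84.6% ± 0.273 in B[a]P pools and 84.5% ± 2.12 in normal colonies (SD over 4 libraries). It was 86.7% ± 0.819 in transformed colonies, 87.7% ± 0.257 in the senescent and 89.2% ± 0.386 in the bypass culture. The 4 bypass libraries, at 89.0, 88.9, 89.7 and 89.2%, lay above the 4 senescent libraries, at 87.4, 88.0, 87.8 and 87.7%. All 8 lay above every library of the other 4 groups. The transformed colonies read 86.2, 85.8, 87.3 and 87.4% and the normal colonies 82.9, 82.4, 86.8 and 85.8%, so these 2 groups overlapped. Vehicle pools, at 86.3, 85.3, 85.7 and 85.1%, overlapped with both colony groups, and B[a]P pools, at 84.2, 84.9, 84.6 and 84.8%, overlapped with the normal colonies only.

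**Figure D1:**
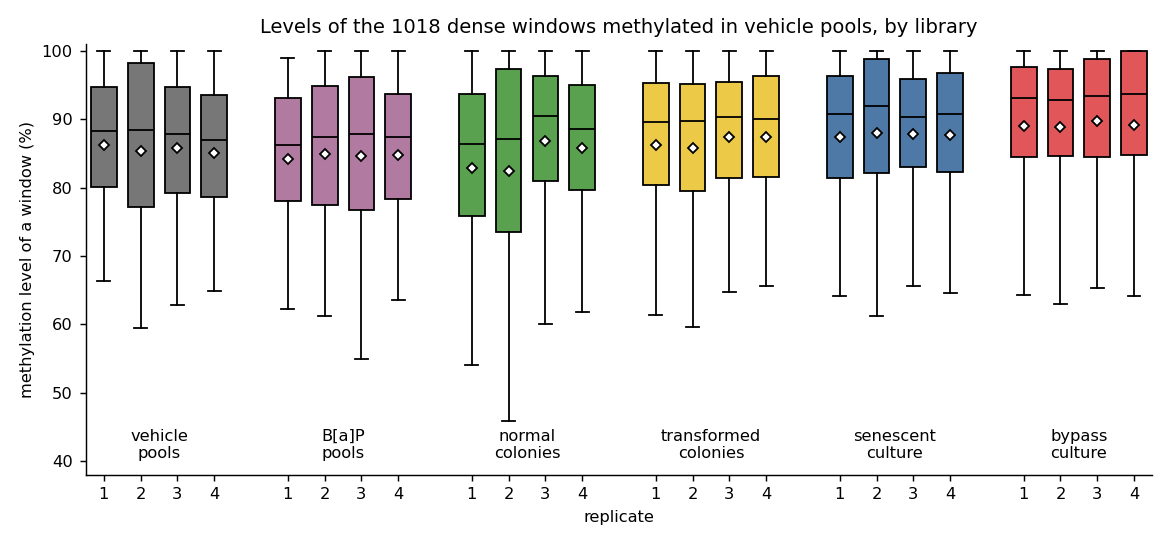
Methylation level (%, y axis) of the 1018 windows in each of the 24 libraries (x axis, replicate number within each group). Boxes span the quartiles with the median as a line, whiskers the 5th to 95th percentile, and diamonds mark the mean, which lies between 88.9 and 89.7% in the bypass libraries and between 82.4 and 86.8% in the normal colonies.

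The normal colonies spread most. Replicates 1 and 2 held 38 and 64 windows under 50%, against 25 and 17 in replicates 3 and 4, and 12 to 24 in the transformed colonies. Normal colony replicate 2 also listed the fewest positions of its group, a median of 12 per window against 18 to 21 in the other 3. Without that library the normal colonies averaged 85.2% ± 1.99 (n = 3), still below the transformed colonies, and the groups still overlapped. The part of its lower number of positions in its level was not tested.

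The size of the selection was measured within the vehicle pools. When the windows were chosen anew on 3 vehicle pools and read in the pool left out, 1003 to 1031 windows were chosen and the left-out pools averaged 84.1% ± 1.18 (82.7 to 85.4%, n = 4), while the 3 choosing pools averaged 85.8 to 86.0%. The B[a]P mean of 84.6% lay inside the range of the left-out pools.

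The number of almost fully methylated windows differed more between stages than the mean did. Windows with a group mean of 95% or more numbered 135 in vehicle, 130 in B[a]P pools, 176 in normal and 194 in transformed colonies, 285 in the senescent and 387 in the bypass culture. At 90% or more there were 360, 367, 401, 455, 521 and 615 in the same order. The change was not particular to dense windows. Among 1167 sparse windows (10 or fewer positions, same vehicle rule), 175 in vehicle, 379 in the senescent and 409 in the bypass culture reached 95%. Their means were 85.4, 86.1 and 86.2%. At the lower end, 91 windows averaged under 70% in B[a]P pools, 115 in normal colonies, 66 in transformed colonies, 65 in the senescent and 62 in the bypass culture. Group means under 50% were rare, at 3, 6, 2, 8 and 9 windows, and no window averaged under 20% in any group. The median SD between the 4 replicates of a window was 7.60 points in vehicle pools and normal colonies, which were described as biological replicates. It was 5.18 in the senescent and 4.74 in the bypass culture, whose libraries were technical replicates. The SDs of the late culture cover technical spread only, so they cannot be compared with those of the pools and colonies. The part of the replicate type in the numbers of windows reaching 95% was not tested.

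**Figure D2:**
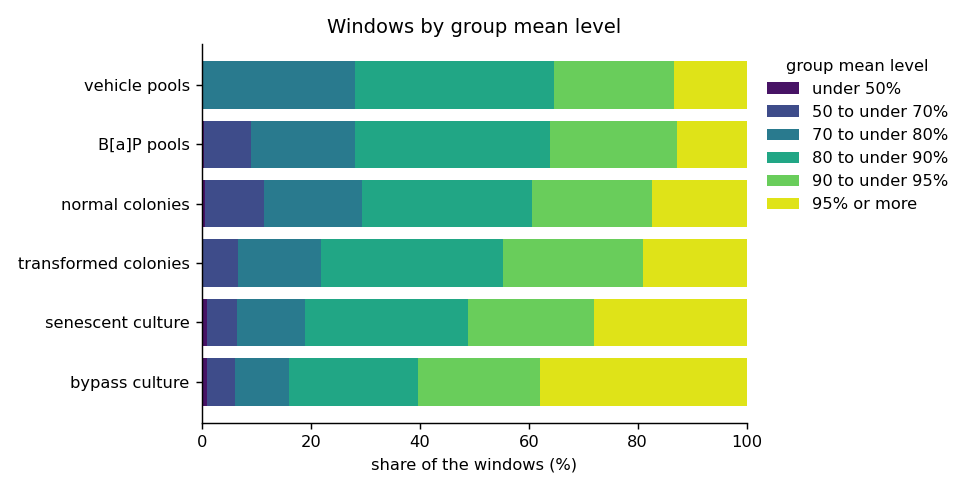
Share of the 1018 windows (%, x axis) in each class of group mean level (colours) for the 6 groups (y axis). The class of 95% or more widens from 135 windows in vehicle pools to 387 in the bypass culture, while the classes under 70% stay narrow at 62 to 115 windows in the groups other than vehicle.

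Denser windows were rarer in this class and read higher than those with 30 to 39 positions in every group. Among dense windows, 573 of 2421 with 30 to 39 positions met the level rule (23.7%), 320 of 3811 with 40 to 59 positions (8.40%) and 125 of 7760 with 60 or more (1.61%). The bypass mean was 87.9% ± 0.495 at 30 to 39 positions, 90.4% ± 0.465 at 40 to 59 and 91.8% ± 0.195 at 60 to 176 positions (SD, n = 4). The senescent means were 87.2% ± 0.247, 88.3% ± 0.603 and 89.0% ± 0.955. The bypass culture thus exceeded the senescent one by 0.769, 2.17 and 2.82 points in the 3 classes. Vehicle pools averaged 85.0, 86.4 and 86.3% in the same classes, and B[a]P pools 84.1, 85.3 and 85.3%. Normal colonies averaged 83.5, 85.7 and 85.8%, and transformed colonies 85.8, 87.7 and 87.9%. In sparse windows, with 3 to 10 positions and the same vehicle rule (1167 windows), the bypass mean was 86.2% ± 0.203 and the senescent mean 86.1% ± 0.652, 0.0701 points apart, and their libraries overlapped. No such gradient with density was seen between the colonies, where the transformed mean exceeded the normal one by 2.26, 2.05 and 2.18 points in the 3 dense classes and by 1.498 points in sparse windows. Depth differed with density: the median window had 467.5 reads per bypass library at 30 to 39 positions and 814.5 at 60 or more, and its part in these differences was not tested.

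**Figure D3:**
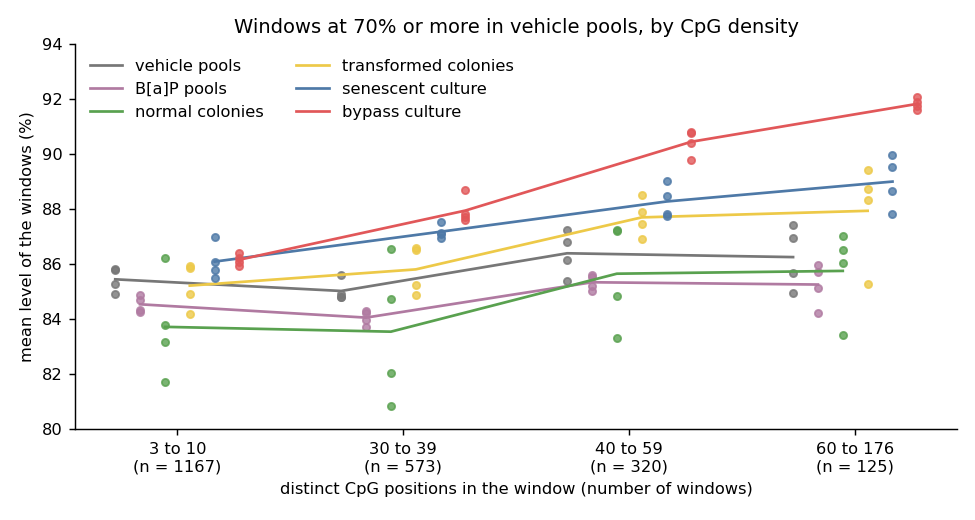
Mean level (%, y axis from 80%) of windows at 70% or more in vehicle pools, by the number of distinct CpG positions in the window (x axis, with the number of windows). Points are the 4 libraries of each group and lines join the group means, with the bypass mean rising from 86.2% in sparse windows to 91.8% in the densest class.

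The other dense windows, set beside these, moved over a different range. In the 11918 dense windows under 20% in vehicle, group means ran from 2.03% ± 0.167 in vehicle to 4.17% ± 0.167 in the senescent and 6.63% ± 0.222 in the bypass culture. In the 1056 dense windows at 20 to under 70%, they ran from 42.6% ± 2.67 in vehicle to 54.6% ± 0.894 and 61.5% ± 0.357. The differences between the bypass and the senescent culture were 1.46 points on average in the methylated dense windows, 2.47 in the unmethylated and 6.85 in the intermediate ones.

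Single positions inside the windows were less uniform than the window means. With reads pooled over a group and at least 10 of them, 75.1% of positions read 80% or more in vehicle pools and 5.77% read 20% or less, and 704 of the 1018 windows (69.2%) held at least 1 position of the latter kind. In the bypass culture 83.7% of positions read 80% or more and 4.61% read 20% or less. The middle class, between 20 and 80%, held 19.1% of positions in vehicle, 20.7% in B[a]P pools, 19.5% in normal and 18.3% in transformed colonies, 15.1% in the senescent and 11.7% in the bypass culture. From vehicle to bypass the middle class was thus the one that shrank most, and the share at 20% or less differed by far less. The smaller middle class was not particular to dense windows. In sparse windows with the same vehicle rule it held 26.2% of positions in vehicle and 19.5% in bypass, while 2.86% and 4.54% read 20% or less. The part of the replicate type in these shares was not tested.

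Most positions read as unmethylated were so in 1 group only. Of 22665 positions measured in all 6 groups, 3191 read 20% or less in at least 1 group and 2183 of these in exactly 1. Only 83 positions (0.366%), in 46 windows, read 20% or less in all 6 groups. Of the 978 positions at 20% or less in vehicle pools, 532 read 80% or more in the bypass culture and 368 in B[a]P pools. Positions at 80% or more in all 6 groups numbered 8672, or 38.3%.

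The bypass and senescent cultures addressed what differed in methylation before and after escape from senescence. Of the 1018 windows, 711 could be tested, and the other 307 had a level above 95% pooled over the 8 libraries. Methylation was called higher in bypass at 12 windows, 1.69% of those tested, where 3.31% of all 24638 windows tested were called higher. It was called lower at 5 windows, or 0.703%, against 0.304% of all tested windows. A call needed an adjusted p below 0.05 and group means at least 10 points apart. A window above 90% in the senescent culture thus could not be called higher, and 521 of the 1018 averaged 90% or more there. Sparse windows with the same vehicle rule had similar shares, with 1.6% of 750 tested called higher and 0.933% called lower. At an unadjusted p under 0.05 there were 126 windows (17.7%, against 19.9% of all), and the 4 bypass libraries lay entirely above the 4 senescent ones at 29 (4.08%, against 8.72%) and entirely below at 10 (1.41%, against 1.86%). The median difference was 2.08 points in the 711 windows and 3.44 in all tested windows, and 63.3% and 63.5% of windows had the higher mean in bypass. The calls rested on the test used, since edgeR's quasi-likelihood test called 0 of these windows and 0 of all 24638 in either direction. The test without squeezed dispersions also called 0 of these windows, and 155 higher and 15 lower of all 24638. Leaving out 1 library gave 4 to 9 windows called higher, with 4 without bypass replicate 2, 6 without bypass replicate 3, 5 without bypass replicate 4, 6 without senescent replicate 3 and 7 without senescent replicate 4. For windows called lower it gave 0 without bypass replicate 1, 1 without bypass replicate 4 or senescent replicate 2, and 2 without any of the others.

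**Figure D4:**
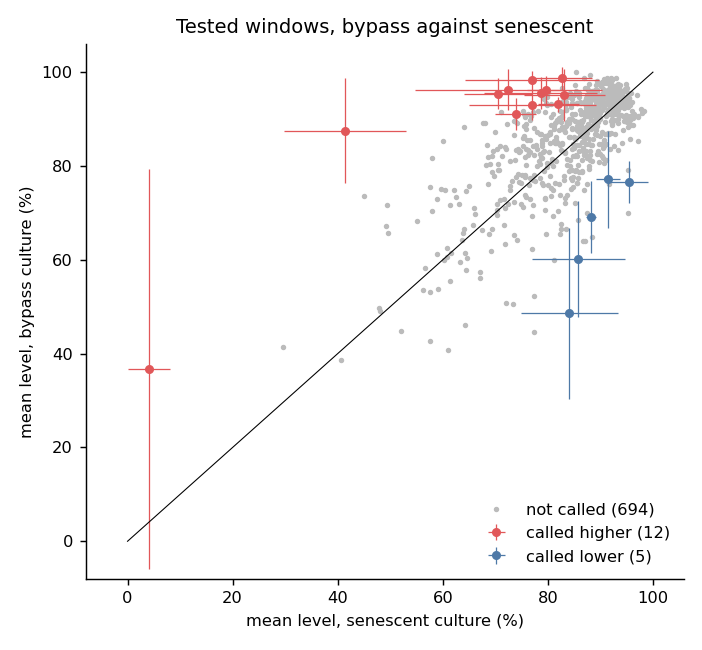
Mean level in the bypass culture (%, y axis) against the senescent culture (%, x axis) for the 711 tested windows, as used in the test, without positions in the top 0.1% of coverage. Coloured points are the 12 windows called higher and the 5 called lower with SD over 4 libraries, and the diagonal marks equal levels; the point near the lower left is the window on KB708224.1 whose level rests on positions of extreme coverage.

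The window with the largest increase was KB708129.1:4073001-4074000, with 41 positions. The senescent libraries read 36.1, 56.1, 44.5 and 28.9% and the bypass libraries 86.4, 72.9, 100 and 90.8%, means of 41.4% ± 11.7 and 87.5% ± 11.3 (SD, n = 4; adjusted p = 0.0163). The groups were far apart, and vehicle pools, at 71.1% ± 7.53, lay between them. The bypass value of 100% came from 75 reads at 3 positions, and the call was kept in 6 of the 8 fits that left out 1 library.

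At KB708270.1:4509001-4510000, with 47 positions, senescent libraries read 78.9, 63.5, 71.3 and 68.2% and bypass libraries 95.5, 98.7, 91.0 and 96.4%. The means were 70.4% ± 6.46 and 95.4% ± 3.23 (adjusted p = 0.00547, the smallest of the 711), and the call was kept in all 8 leave-one-out fits. B[a]P pools read 93.4% ± 5.71 there, near the bypass level. KB708304.1:296001-297000 read 70.4, 70.7, 78.2 and 76.3% in senescent and 87.7, 89.7, 91.3 and 95.6% in bypass libraries, a difference of 17.2 points (adjusted p = 0.0151) that was kept in 7 of 8 such fits. On the positions listed in all 8 libraries it was 31.9 points. The other 4 groups averaged 64.8 to 73.6% in that window, so the bypass mean was the highest of the 6.

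The last pair of windows with large increases kept their calls less often. KB708140.1:4913001-4914000 read 68.2, 85.1, 87.6 and 49.1% in senescent and 99.8, 100, 91.3 and 93.7% in bypass libraries (adjusted p = 0.0406, kept in 2 of 8 fits). KB708274.1:853001-854000 read 91.1, 70.7, 83.6 and 62.6% against 100, 95.9, 97.1 and 100% (adjusted p = 0.0408, kept in 1 of 8). In both windows the senescent libraries were spread widely and the bypass libraries lay close together.

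Among the 4 named windows that were lower in bypass, KB708136.1:11148001-11149000 differed most. Its senescent libraries read 83.4, 91.4, 90.3 and 71.3% and its bypass libraries 33.9, 66.1, 62.4 and 31.8% (means 84.1% ± 9.27 and 48.6% ± 18.2; adjusted p = 0.045, kept in 2 of 8 leave-one-out fits). The other 4 groups averaged 78.8 to 88.7%, so the bypass mean was the lowest of the 6. KB708217.1:3486001-3487000 read 84.9, 97.8, 76.5 and 83.9% in senescent and 49.6, 64.8, 75.6 and 50.6% in bypass libraries (adjusted p = 0.038, kept in 2 of 8). The difference was -25.6 points, and -55.2 points on the positions listed in all 8 libraries. The share of reads on that scaffold was lower in bypass than in senescent libraries, with a log2 ratio of -1.06, and its part in the call was not tested.

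KB708338.1:947001-948000 read 87.0, 88.5, 88.1 and 89.2% in senescent and 63.9, 79.9, 63.5 and 69.4% in bypass libraries (adjusted p = 0.0287, kept in 1 of 8). KB708161.1:12832001-12833000 read 91.9, 92.8, 97.8 and 99.2% against 77.3, 76.9, 70.5 and 81.5% (adjusted p = 0.0287, kept in 3 of 8). On the positions listed in all 8 libraries the call ended in both, with a difference of -2.59 points in the first (adjusted p = 0.806) and -20.3 points in the second (adjusted p = 0.825), and a coverage of 20 ended both as well (adjusted p = 0.0515 and 0.095). The bypass level of the first, 69.2% ± 7.65, was close to the vehicle level of 71.6% ± 6.47, whereas that of the second, 76.6% ± 4.54, was below the vehicle level of 83.5% ± 7.24. The remaining 7 windows called higher differed by 11.2 to 32.6 points (adjusted p = 0.0168 to 0.0492) and the remaining 1 called lower, KB708196.1:1488001-1489000, by -14.3 points (adjusted p = 0.0306, and 0.417 on the positions listed in all 8 libraries).

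The 32.6 points belonged to KB708224.1:6798001-6799000, the window resting on extreme coverage. Without the top 0.1% of positions it read 4.04% in senescent and 36.7% in bypass, and with all positions 86.7% and 80.1%, which turned the difference to -6.54 points (adjusted p = 0.385). The densest window called higher was KB708382.1:469001-470000, with 114 positions and 914 to 3607 reads per library. It read 82.7, 78.8, 79.2 and 87.3% in senescent and 92.4, 92.2, 92.6 and 95.6% in bypass libraries, and vehicle pools averaged 78.7% ± 4.04. The call (difference 11.2 points, adjusted p = 0.0284) was kept in 2 of 8 leave-one-out fits, and at a coverage of 20 the difference was 8.997 points (adjusted p = 0.169).

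Transformed and normal colonies addressed what accompanied the change in morphology. Of the 1018 windows 855 could be tested, and 0 were called, as were 0 of all 26825 windows tested (0%). At an unadjusted p under 0.05 the logistic test gave 76 windows (8.89%, against 8.12% of all). edgeR's quasi-likelihood test called 0 of these windows and 0 of all tested. The transformed libraries lay entirely above the normal ones at 19 windows (2.22%, against 2.17%) and entirely below at 5 (0.585%, against 0.969%). The median difference was 1.88 points in these windows and 2.39 over all tested windows. Over all 1018 windows, 136 (13.4%) were higher by 10 points or more in transformed colonies and 31 (3.05%) lower, against 2208 (9.67%) and 907 (3.97%) of the 22842 windows measured in every library. Of those 22842, 11918 were dense windows under 20% in vehicle, and 1.49% of these were higher by 10 points or more. Among the 1167 sparse windows with the same vehicle rule as the methylated dense ones, 164 (14.1%) were higher by that much and 86 (7.37%) lower. The smallest adjusted p was 0.428.

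The 5 windows with the smallest p differed in how the normal colonies were spread. At the adjoining windows KB708149.1:8247001-8248000 and KB708149.1:8248001-8249000, transformed colonies read 97.2 to 100.0%. Normal colonies read 96.9, 95.5, 58.3 and 99.5% in the first and 97.9, 98.0, 46.9 and 99.3% in the second, so replicate 3 alone was low and the groups overlapped (adjusted p = 0.502 and 0.428). Without normal colony replicate 2 both windows were called, at an adjusted p of 0.00489, and without replicate 4 1 window was; without replicate 3 both pooled levels exceeded 95% and were not tested. The culture carried from a transformed colony averaged less there: the senescent libraries averaged 47.8% ± 19.8 and 61.5% ± 12.6, and the bypass libraries 49.6% ± 18.1 and 61.5% ± 15.4.

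The window with the most positions of all, KB708344.1:1353001-1354000 with 176 positions, read 72.0, 62.4, 87.8 and 61.9% in normal and 82.0, 84.9, 94.2 and 93.4% in transformed colonies (adjusted p = 0.428). The senescent culture read 93.9% ± 1.02, the bypass culture 90.9% ± 4.15, vehicle pools 83.5% ± 6.49 and B[a]P pools 72.0% ± 7.91. At KB708140.1:4913001-4914000 the normal colonies read 71.0, 58.97, 60.5 and 80.4% and the transformed colonies 84.4, 92.3, 80.1 and 93.4% (adjusted p = 0.502), with 1 normal colony above the lowest transformed one. KB708367.1:444001-445000 read 86.1, 66.2, 83.8 and 70.3% against 98.8, 90.5, 99.9 and 97.3% (adjusted p = 0.502), with no overlap. None of these differences passed the adjustment.

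B[a]P pools are set beside the vehicle pools as a description. The lowest B[a]P mean was at KB708281.1:983001-984000, where B[a]P pools read 48.0, 58.1, 15.3 and 46.3% and vehicle pools 100, 50.8, 96.6 and 44.0%, so the groups overlapped. At KB708140.1:3284001-3285000 B[a]P pools read 56.2, 50.0, 31.9 and 49.8% and vehicle pools 93.1, 33.3, 91.3 and 100%, where vehicle replicate 2 was low. At KB708228.1:679001-680000 B[a]P pools read 63.3, 46.1, 48.5 and 47.0% and vehicle pools 82.8, 99.3, 77.5 and 53.3%. In all 3 windows at least 1 vehicle pool reached into the B[a]P range.

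That last window had the widest range over the 6 group means, 52.8 points. Normal colonies averaged 37.6% ± 41.0, from 10.95, 0, 90.6 and 48.8%, while transformed colonies read 79.1, 70.6, 82.2 and 75.1% and the senescent and bypass cultures averaged 90.4% ± 4.56 and 87.3% ± 6.23. Its normal colonies ran over almost the whole scale, and the 0 in replicate 2 came from 98 reads at 7 positions, which allows a level of up to 3.06%. The same library also read 0% at KB708131.1:30608001-30609000, from 470 reads at 6 positions (up to 0.638%), and at KB708240.1:6250001-6251000, from 285 reads at 4 positions (up to 1.05%). These limits cover counting error only, since PCR copies of 1 molecule are counted apart. A read over several positions also counts once at each, so even as counting error the limits may be too narrow.

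At KB708131.1:30608001-30609000 the other normal colonies read 97.9, 40.1 and 70.1%, and the senescent and bypass cultures averaged 96.9% ± 2.68 and 97.4% ± 2.74. At KB708240.1:6250001-6251000 the normal colonies read 24.9, 0, 50.4 and 64.7%, all below the transformed colonies at 79.1, 65.9, 66.2 and 80.6%; this did not pass the adjustment (unadjusted p = 0.00489, adjusted p = 0.512, logistic test with limma's squeezing). The late culture read 60.9% ± 12.9 and 60.6% ± 24.9 in that window, between both colony groups.

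Other windows of the 10 with the largest range differed in which groups read high. KB708274.1:850001-851000 averaged 90.2% ± 3.38 in the senescent and 97.1% ± 1.92 in the bypass culture, and 56.3 to 73.6% in the other 4 groups, although transformed replicate 3, at 90.04%, lay within the senescent range. KB708155.1:18817001-18818000 averaged 95.5% ± 2.61 and 89.1% ± 8.53 in the late culture, and 86.1% ± 19.7 in transformed, 70.8% ± 22.6 in vehicle pools, 68.2% ± 20.3 in normal colonies and 52.9% ± 12.2 in B[a]P pools, and the libraries of the vehicle pools and of both colony groups overlapped those of the late culture. KB708169.1:1279001-1280000 was lowest in normal colonies, at 35.5, 51.9, 41.0 and 33.6%, against 66.4, 100, 67.6 and 79.8% in vehicle pools, whose level chose the window. B[a]P pools, at 23.2 to 77.3%, and transformed colonies, at 27.1 to 78.5%, overlapped the normal colonies there. KB708147.1:3688001-3689000 read 85.8, 100, 100 and 94.4% in B[a]P pools and 53.3, 54.5, 70.3 and 0% in bypass libraries, where replicate 4 stood apart.

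**Figure D5:**
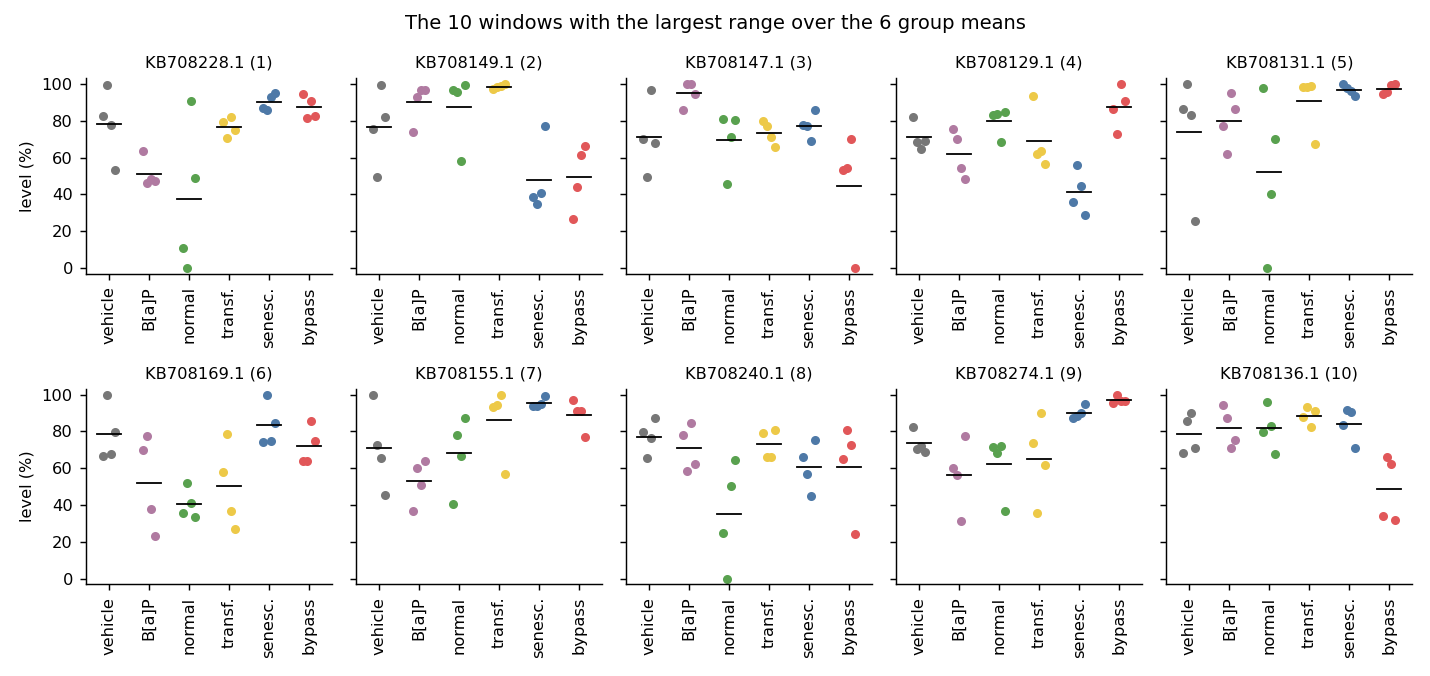
Level (%, y axis) in each library (points) and group mean (bars) for the 10 windows whose 6 group means (x axis) spread most, ordered by that spread and titled by scaffold. In the window on KB708228.1 the normal colonies run from 0 to 90.6%, and in that on KB708136.1 the 4 bypass libraries lie under the senescent ones.

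A few windows were low in the late culture whatever its stage. KB708228.1:7024001-7025000 had the lowest mean of all windows in both, with 36.1, 46.6, 34.6 and 45.2% in senescent and 55.2, 31.8, 32.2 and 35.6% in bypass libraries, and 60.4 to 76.4% in the other groups. KB708266.1:1299001-1300000, with 83 positions, was variable everywhere: B[a]P pools read 16.3, 91.1, 0 and 94.4%, normal colonies 89.99, 0, 23.6 and 47.0%, senescent libraries 65.5, 1.31, 51.4 and 74.2% and bypass libraries 38.1, 97.3, 60.8 and 0%. Technical replicates of 1 culture thus spanned from 0 to 97.3% there.

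Most windows kept a mean of 70% or more in every group, a limit that the vehicle mean met by rule. A mean of 70% or more was kept in all 6 groups by 809 windows (79.5%), one of 80% or more by 527 (51.8%) and one of 90% or more by 195 (19.2%). Another 111 windows were under 70% in 1 group other than vehicle, 98 in 2 or more, and 10 in all 5. The range over the 6 group means had a median of 12.2 points, was under 10 points in 381 windows and 20 points or more in 206. Single libraries were more variable than the group means: 425 windows (41.7%) read 70% or more in every library, and 218 read under 50% in at least 1. Of the 5 windows with the most positions, KB708161.1:11996001-11997000, with 139 positions, stayed at 95.8 to 98.9% in all 6 groups, with an SD of 2.07 points or less. KB708254.1:3205001-3206000, with 170 positions, ran from 63.9% ± 9.21 in B[a]P pools to 94.4% ± 1.04 in the bypass culture. KB708144.1:21923001-21924000, with 139, read 82.9, 48.8, 89.8 and 80.0% in senescent libraries and 91.2% ± 5.201 in bypass.

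Near the rule's limit of 70%, the windows just inside it were KB708225.1:5528001-5529000, KB708322.1:2063001-2064000 and KB708344.1:1140001-1141000, with vehicle means of 70.01, 70.04 and 70.07%. Just outside were KB708127.1:66893001-66894000, KB708274.1:973001-974000 and KB708174.1:8817001-8818000, at 69.998, 69.99 and 69.96%. Their bypass means were 83.7, 75.6 and 88.3% inside and 65.2, 85.7 and 61.7% outside.

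By starting level, the 286 windows at 70 to under 80% in vehicle averaged 82.0% ± 0.697 in the bypass culture, the 372 at 80 to under 90% averaged 89.2% ± 0.413, and the 360 at 90% or more averaged 94.99% ± 0.334. The corresponding senescent means were 80.0% ± 0.454, 87.7% ± 0.214 and 93.9% ± 0.340. In the top class, B[a]P pools averaged 92.3% ± 0.525 and normal colonies 92.5% ± 1.35. Of its 360 windows, 261 and 274 averaged 90% or more in these groups. The classes were cut on the vehicle means themselves, so by selection alone the end classes would tend to read nearer the middle in other groups. The part of this selection in the values was not tested.

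The windows were unevenly placed. They lay on 193 of the 977 scaffolds with a measured window. KB708147.1 held 56, KB708244.1 47, KB708274.1 46 and KB708344.1 39, so these 4 scaffolds held 18.5% of the windows and 7.25% of all dense windows. On the 136 scaffolds with 30 or more dense windows, the windows made up 0 to 33.1% of the dense ones, with a median of 4.196%, and 21 scaffolds had none. On KB708147.1, 53 of the 56 lay between bases 1195001 and 6509000, where they were 21.5% of 247 dense windows. The other 3 were among 185 dense windows elsewhere on the scaffold. That interval begins at the first of these windows on the scaffold, so its bounds depend on them and the share is a description only.

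Mean levels by scaffold mostly followed the order of the groups. On the 27 scaffolds with 10 or more of these windows, which held 589 of them, the bypass mean was above the senescent mean on 21 and below on 6, with differences from -3.48 to 5.38 points. KB708274.1 averaged 88.4% in the senescent and 92.4% in the bypass culture over its 46 windows, and KB708290.1 91.8% and 95.5% over 14. KB708257.1 went the other way, with 88.4% and 84.9% over 11 windows. Transformed colonies were above normal colonies on 24 of the 27 scaffolds.

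On scaffolds whose share of reads was lower in bypass than in senescent libraries, the late culture did not read above the vehicle pools. The 31 windows on such scaffolds, 24 of them on KB708217.1, averaged 84.9% ± 1.14 in vehicle, 81.3% ± 2.29 in the senescent and 82.5% ± 1.92 in the bypass culture. The 987 windows elsewhere averaged 85.6% ± 0.544, 88.0% ± 0.243 and 89.4% ± 0.345. The 24 windows on KB708217.1 read 83.9% ± 1.73 in vehicle, 78.3% ± 3.18 in normal and 80.0% ± 0.9005 in transformed colonies, so both colony groups also read lower than the vehicle pools there.

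Most of the windows stood alone. Adjoining windows formed 55 runs of 2, 5 runs of 3 and 1 run of 4, KB708274.1:890001-894000, which averaged 89.7% in vehicle, 91.8% in normal colonies, 95.1% in transformed colonies, 92.6% in the senescent and 95.3% in the bypass culture. The 286 measured windows directly beside a member of the class averaged 71.0% in vehicle, and 10.8% of them were under 20%. At a distance of 2 kb the mean was 48.8% over 170 windows, with 35.3% under 20%, and at 10 kb 37.8% over 130 windows, with 49.2% under 20%. The neighbours at 1 kb averaged 78.3% in the bypass culture and 76.7% in the senescent culture. Neighbours could themselves be members of the class, which met the vehicle limit by rule, and neighbours outside the class were not averaged apart. The part of such members in the values at each distance was not tested. With members counted among the neighbours, high methylation was shared with the next kilobase more often than with windows farther away.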

How the data were processed

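Groups and replicate numbers came from the sample labels. The tools named per the submitters' processing notes are methylKit 1.10.0, R 3.6.1, Bismark 0.22.1, Bowtie2, Trim Galore 0.5.0 and bcl2fastq 2.20.0.42, without roles or settings. For the assembly of the scaffolds, the build was not given in the sources used here. As counts and percentages, the authors deposited, per the file headers, the read coverage of each CpG position and strand as a count, and the percent of reads with C or T. No deposited position has under 10 reads. Whether PCR copies were removed is not given, and a read over several positions counts once at each.

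Methylated reads were coverage times percent, and 100% of products at coverage up to 1000 were whole within 0.06 reads. Described levels used all positions. For tests, positions in the top 0.1% of coverage were left out, and a window needed 3 positions in each of 8 libraries and a pooled level of 5 to 95%. Methylated and unmethylated reads were fitted by a quasi-binomial logistic model (R 4.3.3) on all such windows. Dispersions were squeezed with limma 3.58.1 in 10 classes of pooled level with a floor of 1, and p-values of the F test were adjusted over all windows by the Benjamini-Hochberg method. edgeR 4.0.16, fits without squeezing, a replicate block, other filters and leaving out each library were alternatives. On simulated windows of the real depth, false calls were somewhat more frequent than the adjustment aims at. Wilson intervals at 95% and limits of 3 reads used scipy 1.17.1. Scaffolds of lower coverage had a log2 ratio of read shares, bypass over senescent, below -0.5.

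Windows named are, by rule, up to 5 called windows that gained most and up to 5 that lost most, with groups that did not overlap, or the 5 smallest p where none was called, the 10 with the largest range of group means, the 5 with the most positions, the 5 lowest in each group, those nearest the 70% limit and the longest runs. KB708382.1, KB708196.1, KB708224.1 and KB708326.1 and the scaffolds were singled out after their values were seen. The windows, lists and rules were chosen with earlier results of these data known. Gene lists were not used here, because no annotation of these scaffolds was used.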

Additional observations from a re-analysis of the deposited data

Results flagged for a closer look

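Dixon's test for a stray value was run on 110 groups of 4 values, covering 20 named windows and the mean level and number of windows under 50% in 5 groups. The vehicle pools were not tested, because they chose the windows. It picked out 8 groups, and none of them was a mean level or a count of windows. Many of the windows were named for extreme levels in these same libraries, and some adjoin. The 5.5 groups that 1 in 20 would give for independent values therefore cannot be set against the 8. Each is given with the range of the other 3 libraries and, for the stray library, a 95% Wilson interval that covers counting error only.

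In normal colonies, KB708149.1:8248001-8249000 read 46.9% in replicate 3 (43.9 to 49.9%, 1065 reads) against 97.9 to 99.3% in the others, and the adjoining KB708149.1:8247001-8248000 read 58.3% in the same library (56.0 to 60.5%, 1842 reads) against 95.5 to 99.5%. KB708129.1:4073001-4074000 also read low in that library, at 68.2% (64.4 to 71.8%, 610 reads) against 83.4 to 85.0%. KB708274.1:850001-851000 read 36.6% in replicate 4 (33.5 to 39.9%, 846 reads) against 68.3 to 72.0%.

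In transformed colonies, replicate 4 was low in 2 windows. KB708131.1:30608001-30609000 read 67.3% there (65.1 to 69.4%, 1813 reads) against 98.2 to 98.8%, and KB708155.1:18817001-18818000 read 57.0% (54.0 to 59.8%, 1129 reads) against 93.3 to 100%.

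The remaining 2 were high. KB708149.1:8247001-8248000 read 77.2% in senescent replicate 4 (74.4 to 79.9%, 887 reads) against 34.8 to 40.5% in the other technical replicates of that culture. KB708228.1:679001-680000 read 63.3% in B[a]P pool replicate 1 (59.9 to 66.6%, 774 reads) against 46.1 to 48.5%.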

How the results depend on the processing

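In all 14 other ways of choosing or reading the windows the bypass mean was highest and the senescent mean next, 1.20 to 2.36 points lower, and transformed colonies exceeded normal ones by 1.71 to 2.495 points. Transformed colonies came next after the late culture in 13, the exception being positions listed in all 24 libraries.

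The number of windows was 2297 with 20 or more positions, 445 with 40 or more, 402 at a coverage of 20 or more, 660 with 5 positions per library and 52 on positions listed in all 24. Means in vehicle pools, B[a]P pools, normal and transformed colonies, senescent and bypass culture were 82.1, 81.5, 81.3, 83.8, 85.3 and 87.2% at a vehicle limit of 60%, and 89.6, 88.2, 88.4, 90.1, 90.8 and 92.0% at 80%. With 40 positions, vehicle, B[a]P, transformed, senescent and bypass read 86.4, 85.3, 87.8, 88.5 and 90.8%, and on positions in all 24 libraries 86.5, 84.2, 85.3, 88.2 and 89.8%. B[a]P, senescent and bypass read 84.0, 86.9 and 88.1% with 20 positions, and 84.2, 87.4 and 88.6% at a coverage of 20. B[a]P read 84.9% with 5 positions per library. Unweighted means were 85.0% in B[a]P and 88.2% in senescent. Leaving out 1 vehicle pool gave 85.1 to 85.7% in vehicle and 84.3 to 84.8% in B[a]P.

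The number of windows tested changed with the setting. Of all 24638 windows tested, 816 were called higher and 75 lower in bypass. A coverage of 20 gave 404 and 41 of 12966, no squeezing 155 and 15 of 24638, and edgeR 0 and 0. Positions in all 8 libraries gave 237 higher and 54 lower of 6976. Leaving out 1 library gave 395 to 684 and 32 to 49 of 25052 to 29164. Of the methylated dense windows, 12 higher and 5 lower of 711 became 2 and 2 of 150 on positions in all 8 libraries. They became 0 and 0 of 711 without squeezing or with edgeR. A pooled level of 1 to 99% gave 6 higher of 1000, and 5 positions gave 8 lower of 614. Leaving out 1 library gave 4 to 9 and 0 to 2 of 705 to 725. For the colonies, leaving out 1 library gave 0 to 2 higher, over all windows and in these. The window on KB708224.1 reversed without the upper coverage limit (adjusted p = 0.385). The cause of these changes was not tested.

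Replicates shared numbers across groups, but same-numbered libraries did not deviate together (correlations from -0.00384 to 0.00542 in the late culture and from -0.0277 to 0.0302 in the colonies, with 0 and 2 libraries closest to their own number). With a replicate block, 453 windows were called higher and 60 lower in bypass, 5 and 2 of them methylated dense windows, and 21 higher and 2 lower in transformed colonies, 0 of them methylated dense windows.

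Windows above 95% pooled could not be tested. The median was 565 reads per window and library, and how many separate molecules they came from is not known.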
